A study of Mus musculus with 12 samples.

Results

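The regions described here were chosen by ATAC-seq peak calls, as stretches of the genome with a called peak in both groups of offspring of mothers on the diet labelled WD and in neither group of offspring of mothers on the diet labelled CD. They number 1691 of 48003 merged regions, or 3.52%, and 10.5% of the 16103 regions that hold a peak of both groups of WD mothers. They are called WDM-only regions below, a name that refers to peak calls alone. The cells were mouse aortic endothelial cells, the single layer that lines the inside of the aorta, and the series' title sets the study in the question of how a maternal high-fat diet bears on atherosclerosis in the offspring.

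There were 4 groups, named by the diet of the mothers (M) and of the offspring (O). In WDM-WDO both had WD, in WDM-CDO the mothers alone, in CDM-WDO the offspring alone, and in CDM-CDO neither. Offspring of the WDO groups were given WD again for 4 weeks. The labels abbreviate the diets and give no genotype, strain, sex or age. Peak names in the deposited lists carry a label of 12 weeks in WDM-WDO and CDM-WDO and of 8 weeks in WDM-CDO and CDM-CDO, so offspring diet and this week label cannot be told apart, while the maternal diets are compared within the same week label. The sources used here do not say what the weeks count from. Each group has 2 ATAC-seq samples but 1 peak list that does not separate them. There is therefore no replicate error, no test was made, and intervals below are 95% Wilson intervals that cover counting error only.

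ATAC-seq cuts DNA where it is free of nucleosomes and sequences the pieces, so a pile of reads marks an accessible stretch such as a promoter or an enhancer. Promoters of broadly used genes are open in most cell types, whereas distal elements differ more between cell types and states. In the endothelium of arteries, the transcription factors NF-kB and AP-1, together with ETS factors, act at many elements of genes for leukocyte adhesion and cytokine response. Lipid uptake and export genes are also controlled in part from distal elements, through nuclear receptors and SREBP factors.

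After restriction to chromosomes 1 to 19 and X, the lists held 26275 peaks in WDM-WDO and 28319 in WDM-CDO, against 18962 in CDM-WDO and 22178 in CDM-CDO. They differ in genome background as well as in length. The genome background recovered from the peak scores was 6.08 reads in WDM-WDO and 5.59 in WDM-CDO, against 5.49 in CDM-WDO and 4.84 in CDM-CDO. Read depth itself is unknown, so how far this reflects depth was not tested. Of all 48003 regions, 28.7% held a WDM-WDO peak but no CDM-WDO peak, and 23.9% held a WDM-CDO peak but no CDM-CDO peak. The opposite of the WDM-only regions, with a peak in both CDM lists and in neither WDM list, numbered 234, or 0.487% of all regions. When each list was cut to its strongest 18962 peaks, 769 WDM-only regions stood against 291 of these CDM-only regions.

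The cell label was set against marker genes, and the markers moved between the lists. A peak within 1 kb of a gene end was present at 17 of 38 endothelial identity genes in WDM-WDO and 19 in WDM-CDO, against 14 in CDM-WDO and 16 in CDM-CDO. This was so for 48.0%, 51.5%, 40.8% and 48.5% of all 21631 protein-coding genes in that order of lists. The endothelial cadherin gene Cdh5, Pecam1, Tek and Vwf had no gene-end peak in any of the 4 lists, although each had assigned regions elsewhere in at least 3 of them, and the VEGF receptor gene Kdr had one in all 4. Erg, an endothelial ETS factor gene, had one in both CDO lists only. Macrophage and monocyte markers had a gene-end peak at 12 of 18 genes in WDM-WDO and at 5 in each of the other lists. Csf1r and Adgre1, which mark macrophages, had one in WDM-WDO alone, whereas Cd68 had one in all 4 lists and Spi1 in WDM-WDO and CDM-WDO. T and B cell markers had one at 10 of 19 genes in WDM-WDO and 13 in WDM-CDO, against 4 in CDM-WDO and 11 in CDM-CDO. Cd3e of T cells and Cd79b of B cells had one in both CDO lists and none in the WDO lists. Smooth muscle markers had one at 1, 4, 2 and 4 of 14 genes and fibroblast markers at 3, 5, 4 and 4 of 14. Neutrophil markers had one at 4, 0, 1 and 0 of 12 genes. In such bulk samples more cells of a type and more accessible DNA per cell cannot be told apart, and the part of other cells in the WDM-only regions was not tested. Of the 12 assigned regions of both WDM lists near macrophage markers 2 were WDM-only, and of the 20 near T and B cell markers also 2.

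The promoter sequences below belong to genes whose start lies under a WDM-only region. Polr2e, Cpsf6 and Mfap1a are 3 of the strongest at gene ends. Plxnd1 is an endothelial gene, Ifit1 and Myd88 belong to interferon and Toll-like receptor signalling, and Fcgr1 is a macrophage marker. Each shows the 150 bases before the listed start on the strand of the gene, from RefSeq on GRCm38.p6. The stretches are Polr2e chr10:80039660-80039809 (minus strand), Cpsf6 chr10:117376974-117377123 (minus strand), Mfap1a chr2:121506657-121506806 (minus strand) and Plxnd1 chr6:115995006-115995155 (minus strand), and further Ifit1 chr19:34640739-34640888 (plus strand), Myd88 chr9:119340019-119340168 (minus strand) and Fcgr1 chr3:96293970-96294119 (minus strand). Capitals mark matches, on either strand, to the motifs searched. Those found in these stretches are the ETS forms GGAAGT and AGGAAG, the GC box GGGGCGGGG, and the interferon response form GAAANNGAA.
Polr2e: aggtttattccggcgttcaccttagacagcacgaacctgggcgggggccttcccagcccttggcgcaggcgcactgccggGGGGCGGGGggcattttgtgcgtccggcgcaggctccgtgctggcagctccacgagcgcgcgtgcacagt
Cpsf6: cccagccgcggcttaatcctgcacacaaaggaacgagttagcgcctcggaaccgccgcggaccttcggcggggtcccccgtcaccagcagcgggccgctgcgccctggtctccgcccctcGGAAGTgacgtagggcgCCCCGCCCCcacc
Mfap1a: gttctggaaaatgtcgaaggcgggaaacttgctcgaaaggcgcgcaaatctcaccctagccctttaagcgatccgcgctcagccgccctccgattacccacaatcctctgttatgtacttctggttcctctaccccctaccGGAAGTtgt
Plxnd1: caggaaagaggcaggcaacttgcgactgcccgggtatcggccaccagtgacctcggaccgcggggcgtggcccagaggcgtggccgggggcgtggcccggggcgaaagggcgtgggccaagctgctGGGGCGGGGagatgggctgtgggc
Ifit1: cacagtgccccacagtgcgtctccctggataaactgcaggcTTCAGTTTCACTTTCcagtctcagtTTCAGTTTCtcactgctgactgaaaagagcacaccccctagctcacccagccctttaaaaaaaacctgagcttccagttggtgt
Myd88: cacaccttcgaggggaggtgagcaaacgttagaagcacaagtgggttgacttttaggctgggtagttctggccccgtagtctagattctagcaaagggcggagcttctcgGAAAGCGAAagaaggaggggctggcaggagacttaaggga
Fcgr1: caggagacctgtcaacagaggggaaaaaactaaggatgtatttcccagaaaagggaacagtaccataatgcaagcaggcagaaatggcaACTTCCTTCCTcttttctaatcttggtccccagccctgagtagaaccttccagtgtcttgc

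These stretches differ in composition. The 300-base window of Polr2e held 65.0% G and C and that of Cpsf6 66.3%, and both had a GC box, 70 and 13 bases before the start. Mfap1a held 48.7% G and C with an ETS match 9 bases before the start. The Ifit1 window held 50.7% G and C with 3 interferon response matches that begin 109, 103 and 84 bases before the start, of which the first 2 overlap. In Fcgr1 the window held 46.0% G and C, with 3 overlapping ETS matches that begin 61, 60 and 56 bases before the start. A match is a run of letters and does not show that a factor binds there.

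Most WDM-only regions held weak peaks. Their median −log10 q, the authors' score of a peak after correction over the genome, was 5.55 in WDM-WDO and 4.49 in WDM-CDO. The range was 1.38 to 44.9 in WDM-WDO and 1.33 to 32.6 in WDM-CDO. The other 14412 regions of both WDM lists had medians of 18.2 and 24.1 in the same 2 lists. The median summit pileup was 32 reads in WDM-WDO and 28 reads in WDM-CDO, and the median enrichment over local background 3.03-fold and 2.94-fold. None of the WDM-only regions lay in the strongest 10% of either list. In the stronger 50% of the list lay 520 of them (30.8%) in WDM-WDO and 279 (16.5%) in WDM-CDO. These values come from the calls that chose the regions and are given as a description.

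Absence of a CDM peak fell steeply with peak strength. Where the lower of the 2 WDM −log10 q values was 1.3 to 2, 60.8% of the 240 regions of both WDM lists were WDM-only. At 4 to 6 it was 21.5% of 1930 regions, at 8 to 12 5.55% of 1999, and at 12 to 20 1.5% of 2397. Above 20 a single region of 3663 up to 50 was WDM-only, at Polr2e, and of the 2269 regions above 50 there was none, with an upper limit of 0.169%. At equal strength the share was lower at gene ends than away from them in each band up to 20. At 4 to 6 it was 14.9% (12.3 to 17.9) of 611 regions at gene ends and 24.6% (22.3 to 27) of 1319 away from them. At 8 to 12 it was 2.59% (1.75 to 3.83) of 926 at gene ends and 8.11% (6.62 to 9.89) of 1073 away.

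**Figure D1:**
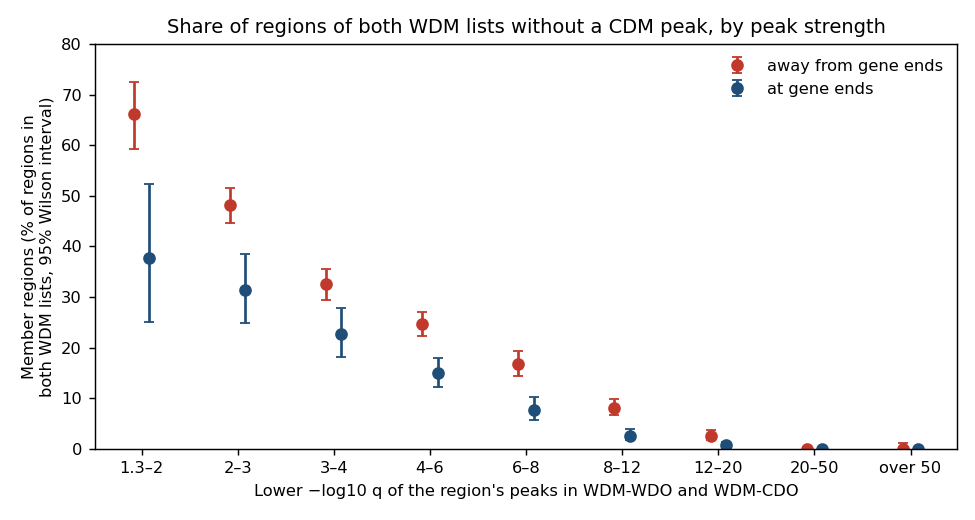
Share of the regions of both WDM lists that have no CDM peak (y axis, %) by the lower of their 2 −log10 q values (x axis, bands), at gene ends and away from them, with 95% Wilson intervals. The share goes down from 66.2% away from gene ends in the weakest band to 2.62% at 12 to 20, and the points at gene ends lie below those away from them up to that band.

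The weakest regions inside the rule were those at Cdk5r2, with −log10 q of 4.37 in WDM-WDO and 1.33 in WDM-CDO, Slc31a2, with 8.92 and 1.37, and AI597479, with 1.38 and 2.35. Just outside it were regions of both WDM lists that a weak CDM peak kept out, such as those at Sdccag8 and Samd14 with CDM-WDO peaks of 1.39 and 1.41 and at Kidins220 with a CDM-CDO peak of 1.51. In all, 64 of the 14412 other regions of both WDM lists had no CDM peak above 2, and 379 none above 3. The nearest CDM peak lay at a median of 14111 bp from a WDM-only region. It was within 500 bp for 43 regions (2.54%), within 1 kb for 94 (5.56%) and within 10 kb for 677.

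Signal at shared regions was lower in the CDM lists, which bears on how many WDM-only regions could have been called there. At 1043 regions that were strong in all 4 lists, the pileup above background was 0.725 times as high for CDM-WDO as for WDM-WDO, and 0.655 times as high for CDM-CDO as for WDM-CDO. The genome background differed less, at 5.49 reads in CDM-WDO against 6.08 in WDM-WDO and 4.84 in CDM-CDO against 5.59 in WDM-CDO. The ratios hold depth and enrichment at peaks together, and these were not separated. The strong regions had −log10 q of 50 or more in the CDM lists too. This leaves out regions with weaker CDM signal and can raise the ratios. Where the lower WDM −log10 q was above 50, 1938 of 2269 regions of both WDM lists were at gene ends, against 306 of 1691 WDM-only regions. Whether the ratios hold away from gene ends was not tested. Scaled by the ratios at the strong regions, the WDM-only regions would have a median pileup of 25.3 reads in CDM-WDO and 19.9 reads in CDM-CDO if they were as open there. This would reach the lowest −log10 p called for 1465 of 1691 (86.6%) in CDM-WDO and for 1204 (71.2%) in CDM-CDO. It would do so in both CDM lists for 1072 (63.4%). The other 619 (36.6%) were not expected to reach it in at least 1 list. The same scaling placed 98.7% of the regions of all 4 lists above both limits, and 88.3% (3584 of 4061) of the regions of both WDM lists and 1 CDM list. The latter have no peak in 1 of the CDM lists, so reaching both limits does not mean that a peak would be called. The pileups that were scaled also come from the calls that chose the WDM-only regions. A margin of 2 times the lowest −log10 p in both CDM lists was reached by 107 WDM-only regions (6.33%).

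The scores of the WDM-only regions in the 2 WDM lists, which come from the calls that chose the regions, were set side by side. The −log10 q was higher in WDM-WDO than in WDM-CDO for 1045 of 1691 (61.8%), against 4235 of the 14412 other regions of both WDM lists (29.4%). Of those others, 3063 had a peak in CDM-CDO but not in CDM-WDO, and 998 in CDM-WDO but not in CDM-CDO. The rule thus left out more regions through CDM-CDO alone, and its part in the difference was not tested. The other regions are stronger and were not matched by strength, and the 2 WDM lists differ in genome background. Across the regions, the 2 lists ranked the WDM-only ones with a Spearman correlation of 0.34 for −log10 q and 0.61 for pileup (n = 1691). For the other regions these were 0.79 and 0.81 (n = 14412). The points of a list share 1 library depth, and the WDM-only regions span a narrower range of strength.

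Summit positions, which enter the rule only through the overlap of peaks, lay at a median of 100 bp from each other in the 2 WDM lists. They were within 100 bp in 50.4% (48.0 to 52.8) of WDM-only regions, against 68.4% (67.7 to 69.2) of the other regions of both WDM lists. At equal strength the order turned round. In the band of 8 to 12, 97 of 111 WDM-only regions (87.4%, 79.9 to 92.3) had summits within 100 bp, against 63.8% (61.6 to 65.9) of 1888 others. In the band of 12 to 20 it was 35 of 36 (97.2%, 85.8 to 99.5), against 69.9% (68.0 to 71.7) of 2361. Below 8 the intervals of both sets overlapped. The WDM-only regions were also narrower, with a median merged width of 622 bp against 977 bp. In the other regions, peaks of the 2 WDM lists can be joined through a CDM peak without overlapping each other. A wider region also has more room for a CDM peak. Summit distance is therefore not independent of the rule, and its part in the difference was not tested.

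**Figure D2:**
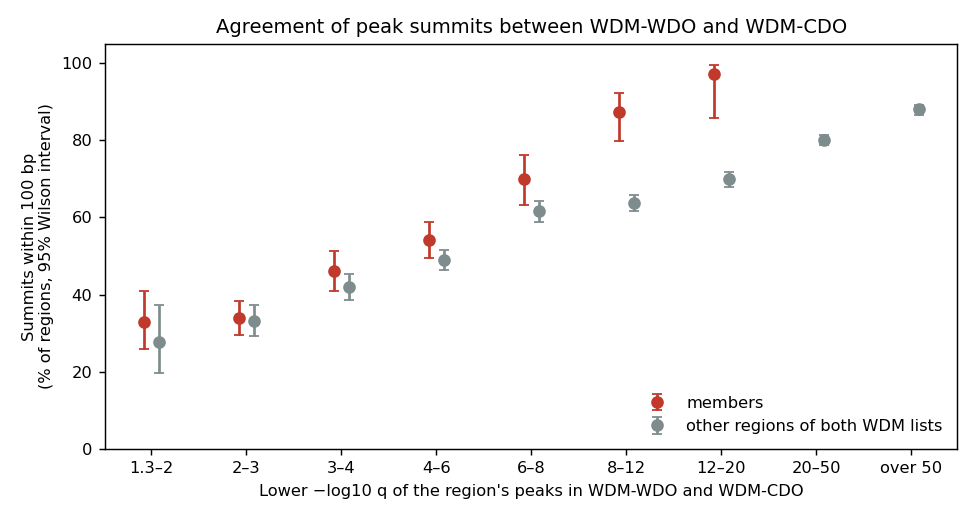
Share of regions whose WDM-WDO and WDM-CDO summits lie within 100 bp of each other (y axis, %) by the lower −log10 q (x axis, bands), for WDM-only regions (members) and the other regions of both WDM lists, with 95% Wilson intervals. The intervals overlap below 8, and the WDM-only points stand above the others at 8 to 12 and 12 to 20. No WDM-only point is drawn above 20, where there is a single region.

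The regions lay mostly away from gene ends. Of the 1691, 306 (18.1%, 16.3 to 20) were within 1 kb of an end of a protein-coding gene, against 24.7% of all 48003 regions and 67.4% of the 10351 regions of all 4 lists. Regions of WDM-WDO alone had 8.09% at gene ends, regions of WDM-CDO alone 9.22%, and regions of both WDM lists and 1 CDM list 33.1%. Another 730 (43.2%) lay inside a gene span away from its ends, 544 (32.2%) outside genes within 100 kb, and 111 (6.56%) farther away. Of the CDM-only regions 11.1% were at gene ends and 29.9% over 100 kb from a gene. The table of gene spans gives no exons, so exon, intron and UTR are not given for any region.

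**Figure D3:**
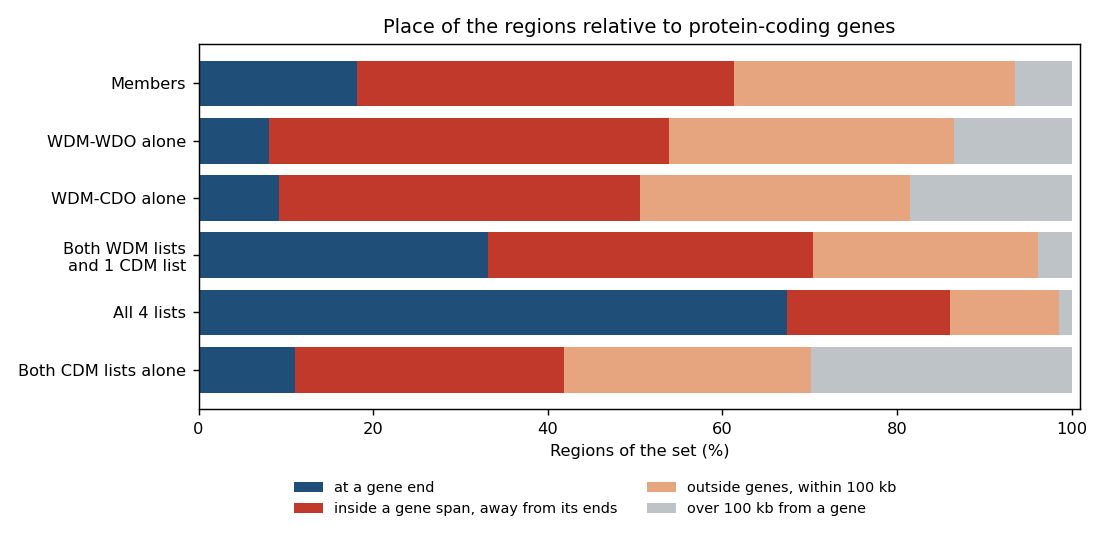
Place of the regions relative to protein-coding genes (x axis, % of each set) for WDM-only regions (members) and 5 other sets. At gene ends lie 18.1% of WDM-only regions, between the 8.09% of regions of WDM-WDO alone and the 67.4% of regions of all 4 lists.

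Of the 1274 WDM-only regions that were assigned to a gene but lay away from gene ends, 602 (47.3%, 44.5 to 50) had a nearest gene with an end open in all 4 lists. The same held for 41.5% (41.0 to 42.1) of all such regions and for 45.1% (43.4 to 46.9) of the regions of all 4 lists. The ends of 332 genes had a WDM-only region, and 86 of these genes also had a gene-end region in a CDM list, leaving 246 without one. The rule lets no CDM peak into a WDM-only region, so this count follows in part from it. Of all 21631 protein-coding genes, 40.8% had a gene-end peak in CDM-WDO and 48.5% in CDM-CDO. A listed promoter window, from 250 bases before to 50 after a start, was covered by 220 regions (13.0%). Their summits lay at a median of 0 bp from the start in WDM-WDO and -4 bp in WDM-CDO, and within 300 bp of it for 179 and 190 regions.

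The strongest WDM-only regions at gene ends are given first. Polr2e, which encodes a subunit shared by the nuclear RNA polymerases, had the strongest of all by the lower of its 2 scores, at chr10:80039453-80039947 (GRCm38). Its −log10 q was 23.1 in WDM-WDO and 26.7 in WDM-CDO, with 72 and 77 reads at summits 9 bp apart. At the shared ratio, 54.9 reads would be expected in CDM-WDO and 53.6 in CDM-CDO, where no peak was called, and the nearest CDM peak was 5296 bp away. It was the 1 region assigned to Polr2e in any list. Sf3a3, a subunit of the splicing complex SF3a (13.9 and 12, in the order WDM-WDO and WDM-CDO), and the head-to-head pair Mfap1a and Wdr76 (16.8 and 14.5), of which Mfap1a encodes a spliceosome protein, likewise had no other region.

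Rab3ip, an exchange factor for a vesicle GTPase, had −log10 q of 15 in WDM-WDO and 31.7 in WDM-CDO. At Rab3ip the nearest CDM peak was 36107 bp away. The region of Hectd4, a HECT-domain gene, had 12.4 in WDM-WDO and 20.8 in WDM-CDO, and Olfml2b, a gene of the extracellular matrix, 11.8 and 14.5. At Gm52217 both assigned regions were WDM-only, the stronger with 14.8 and 21.5, and 1700066B19Rik had 23.4 and 15.4.

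Other strong gene ends had a CDM peak close by. The region of Cpsf6, a factor that helps choose polyadenylation sites, had −log10 q of 15.1 in both WDM-WDO and WDM-CDO, and a CDM peak lay 535 bp away. For Elob, the elongin B gene (17.8 and 18.4, in the order WDM-WDO and WDM-CDO), it lay 422 bp away, and for Znrf2, a ubiquitin ligase gene (19 and 14.3), 496 bp. In such places the CDM lists held an open stretch next to the region rather than none.

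Away from gene ends the strongest regions included one inside Tgm2, the gene of tissue transglutaminase, which crosslinks proteins. It lay at chr2:158132921-158133647, with −log10 q of 32.9 in WDM-WDO and 18.1 in WDM-CDO, 100 and 67 reads, and summits 3 bp apart. Expected pileups were 76.2 in CDM-WDO and 47.3 in CDM-CDO. A weaker WDM-only region in the gene had 8.24 in WDM-WDO and 6.70 in WDM-CDO. Each WDM list held 4 regions near Tgm2 and each CDM list 0. Among the 147 genes with 2 or more WDM-only regions, 13 had no region in either CDM list, including Tgm2, Tmem243, P2ry6, Abcc3, Ccm2l and Ackr2. These last 4 were picked after their values were seen. The rule itself keeps CDM peaks out of the WDM-only regions of these genes, and the same count was not made for other genes.

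**Figure D4:**
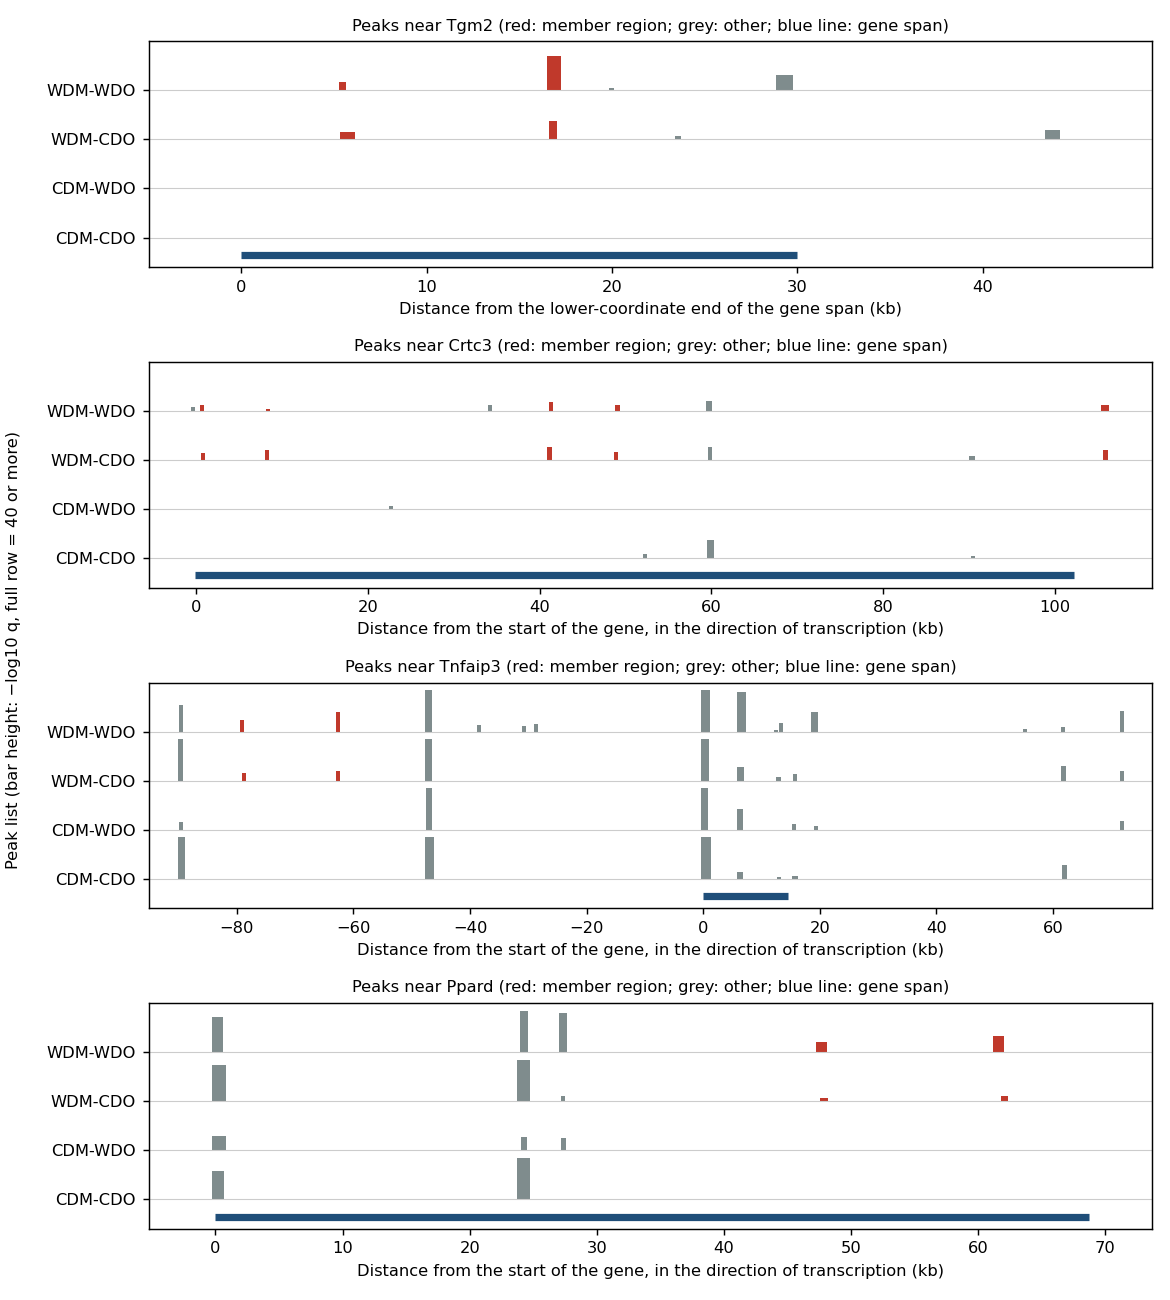
Peaks of the 4 lists near Tgm2, Crtc3, Tnfaip3 and Ppard, by distance from a gene end or start (x axis, kb). Bar height is the −log10 q, drawn up to 40, narrow peaks are widened to be seen, red bars are peaks of WDM-only regions, and the blue line is the gene span. Near Tgm2 both CDM rows are empty, whereas Tnfaip3 and Ppard have peaks at their starts in all 4 rows.

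Hmox1 encodes the haem-degrading enzyme induced by oxidative stress. A region 9540 bp from it, at chr8:75083734-75084078, had −log10 q of 17.8 in WDM-WDO and 21.7 in WDM-CDO. A region inside Anxa5, a phospholipid-binding annexin, had 24.1 in WDM-WDO and 17.7 in WDM-CDO. Inside Synj2, an inositol phosphatase gene, it was 16.4 in WDM-WDO and 28.4 in WDM-CDO. Zmiz1, a transcriptional coregulator, had 31.1 in WDM-WDO and 19.9 in WDM-CDO, with a CDM peak 970 bp away, and Tnrc18 18.3 and 21.6 with one 365 bp away. The Tnrc18 region lies over a listed internal start of the gene, with summits at -212 bp from it in WDM-WDO and -172 bp in WDM-CDO. Gse1 had 16.8 and 19, Creb5, a CREB family factor, 16.7 and 14.4, and Coa5, an assembly factor of cytochrome c oxidase, 16.4 and 17.2. Smim3 had 24.6 and 16.7, and Adamtsl4, whose protein sits on matrix fibrils, 15.5 and 17.6 at 19415 bp. The region with Zxdb as its nearest gene, 135347 bp away, had 14.4 and 32.6. The expected pileups would reach the lowest −log10 p of both CDM lists in all 24 of the strongest regions, 12 at gene ends and 12 away from them.

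Most genes had a single region, since 1266 of the 1413 genes with one had no second. There were 129 genes with 2, 17 with 3 and 1 with 5. That one was Crtc3, a coactivator of CREB. Its 5 regions had −log10 q of 5.94, 1.79, 8.20, 6.04 and 6.05 in WDM-WDO and 6.68, 9.76, 12.2, 7.59 and 9.64 in WDM-CDO, from the start of the gene to past its far end. The first lay 746 to 831 bp into the gene by its summits. A strong element about the middle of the gene, with 9.62 in WDM-WDO and 12.6 in WDM-CDO, was also called in CDM-CDO, with 17.5. In all, 8 regions near Crtc3 were called in WDM-WDO and 7 in WDM-CDO, against 1 in CDM-WDO and 3 in CDM-CDO.

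Of the 17 genes with 3 regions, the 9 with the highest summed scores were Gse1, Aff1, Rnf19b, Nfic, Chd7, Tmem243, Mtmr7, Snx29 and Rin2. Nfic, a nuclear factor I gene, had all 3 within 7728 bp, with −log10 q between 4.06 and 7.37 in WDM-WDO and between 7.14 and 10.1 in WDM-CDO. Rnf19b, a ubiquitin ligase gene, had its strongest at 27.4 in WDM-WDO and 9.90 in WDM-CDO. Aff1, part of the super elongation complex, had 19.4 and 9.82, and Chd7, a chromatin remodeller, 10.5 and 12, again in the order WDM-WDO and WDM-CDO. At 1 region each of Crtc3, Aff1, Rnf19b, Mtmr7, Snx29 and Rin2 the expected pileup would not have reached the lowest −log10 p of both CDM lists. Tmem243 had 4 regions in WDM-WDO, 3 in WDM-CDO and none in the CDM lists. Snx29, a sorting nexin gene, had 25 regions, 17 of them called in WDM-WDO and 10 in WDM-CDO, against 7 in CDM-WDO and 11 in CDM-CDO. Within 25 kb of another WDM-only region lay 168 of the 1691 (9.93%), in 81 groups, of which 6 held 3. The same share was not computed for other sets of regions, so it does not show whether WDM-only regions cluster more than others. By chromosome the share of regions of both WDM lists that were WDM-only ran from 8.57% on X to 13.0% on chromosome 1.

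Among genes of lipid handling, WDM-only regions made up 8 of 38 regions of both WDM lists near fatty acid genes (21.1%, 11.1 to 36.3) and 9 of 51 near cholesterol genes (17.6%). Over all genes it was 10.1% of 15675 assigned regions. With lists of equal length the count near fatty acid genes was 3 and near cholesterol genes 2. Counting only regions expected to reach the lowest −log10 p of both CDM lists it was 4 and 3, and with assignment within 10 kb it was 5 near fatty acid genes. All WDM-only regions went from 1691 to 769 with lists of equal length and to 1072 by expected −log10 p. Counts under these settings, here and for the lists below, are given without a share over all genes. Ppard, a fatty acid-sensing nuclear receptor, had both of its WDM-only regions in the far part of the gene, at chr17:28280009-28280947 and chr17:28293915-28295104, with −log10 q of 10.2 and 15.2 in WDM-WDO and 3.47 and 5.04 in WDM-CDO. The Ppard start itself was called in all lists, with 33.5 in WDM-WDO and 34.4 in WDM-CDO, against 14.1 in CDM-WDO and 27.7 in CDM-CDO. Fabp5, a fatty acid-binding protein gene, had 2 regions at 52286 and 24224 bp, with 3.65 and 6.62 in WDM-WDO and 2.81 and 15.6 in WDM-CDO. Single regions lay near Fabp4 (5.87 in WDM-WDO and 6.17 in WDM-CDO), Pparg (4.35 and 2.91), Ppara (4.47 and 2.16) and Rxra (8.99 and 2.47). At Pparg, Ppara, Rxra and the region of Fabp5 at 52286 bp the expected pileup would not have reached the lowest −log10 p of both CDM lists.

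Abca1, the exporter of cell cholesterol to lipid-poor apolipoprotein, had 2 WDM-only regions inside the gene. They had −log10 q of 24.2 and 8.44 in WDM-WDO and 8.80 and 3.34 in WDM-CDO. The stronger, at chr4:53120260-53120740, held 79 reads in WDM-WDO and 45 in WDM-CDO, and 60.4 would be expected in CDM-WDO and 32.3 in CDM-CDO. Near Abca1 lay 18 regions of WDM-WDO, 11 of WDM-CDO, 8 of CDM-WDO and 5 of CDM-CDO. Srebf1, which encodes a regulator of lipid synthesis genes, shared a weak region with an end of Rai1 (2.46 in WDM-WDO and 3.99 in WDM-CDO). Other cholesterol genes with a region were Npc2 (7.20 in WDM-WDO and 5.41 in WDM-CDO), Npc1 (5.89 and 3.23), Ch25h (5.53 and 2.81), Lpcat3 (3.93 and 3.18) and Sqle (2.25 and 3.18). Both Abca1 regions and that of Npc2 were expected to reach the lowest −log10 p of both CDM lists, whereas those of Srebf1, Npc1, Ch25h, Lpcat3 and Sqle were not.

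In the NF-kB pathway 10 of 64 regions of both WDM lists were WDM-only (15.6%, 8.71 to 26.4), and 5 with lists of equal length. Tnfaip3, the A20 gene that limits NF-kB signalling, had 2, upstream of the gene at 62276 and 78376 bp, chr10:19077686-19078396 and chr10:19093786-19094796. They had −log10 q of 19.1 and 10.8 in WDM-WDO and 9.67 and 7.74 in WDM-CDO. The start of Tnfaip3 was called in all 4 lists, with 84.8 in WDM-WDO and 91.8 in WDM-CDO, against 47.1 in CDM-WDO and 72.1 in CDM-CDO. Tnip1, which encodes a partner of A20, had a region inside the gene (9.35 in WDM-WDO and 4.26 in WDM-CDO) and another at its end (4.75 and 1.87). At the end of Ikbke, a kinase gene of innate signalling, the region had 9.62 and 3.96, but a CDM peak began 112 bp away. Myd88, the adaptor of Toll-like receptors, had 3.52 in WDM-WDO and 4.27 in WDM-CDO, in a stretch of high local background and 693 bp from a CDM peak. Single regions lay near Tnfrsf1b (15.6 and 9.40), Traf1 (8.38 and 8.46), Ikbkb (8.24 and 5.17) and Map3k8 (6.13 and 2.40). The regions at the end of Tnip1 and near Map3k8 were not expected to reach the lowest −log10 p of both CDM lists.

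Genes of adhesion and chemokines had 4 of 28 (14.3%, 5.70 to 31.5), and 2 with lists of equal length or by expected −log10 p. Ccl7, a monocyte-attracting chemokine, had its only region in any list there, with −log10 q of 5.93 in WDM-WDO and 2.45 in WDM-CDO and pileups of 32 and 21 reads. The expected 24.9 reads in CDM-WDO and 15.4 in CDM-CDO did not reach both limits. Il1b had a region 9163 bp away (8.88 in WDM-WDO and 5.17 in WDM-CDO), and Cx3cl1 had 1, which was not expected to reach both limits. Near AP-1 and early response genes the count was 8 of 71 (11.3%), and 2 with assignment within 10 kb. These included 2 each near Fosl2, Dusp5 and Myc and 1 each near Fos and Dusp1. The stronger one near Fosl2, an AP-1 subunit gene, had 8.98 in WDM-WDO and 13.5 in WDM-CDO, and the other lay in high local background. Interferon response genes had 3 of 48 (6.25%), at Ifit1, Irf1 and Irf2. Those of Irf1 and Irf2 and 1 of the 2 near Dusp5 were not expected to reach both CDM limits. At the Ifit1 promoter shown above the region, which also reaches an end of Ifit1bl2, had 11.4 in WDM-WDO and 5.24 in WDM-CDO, with 46 and 26 reads, and neither CDM list had a region at that gene.

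Genes of vascular tone and shear stress response had 7 of 42 (16.7%, 8.32 to 30.6), and 3 with assignment within 10 kb. Edn1, which encodes the vasoconstrictor endothelin 1, had 2, at 55263 and 42310 bp, chr13:42245316-42246213 and chr13:42258302-42259166. They had −log10 q of 13.4 and 9.82 in WDM-WDO and 4.07 and 3.65 in WDM-CDO, and a CDM peak lay 455 bp from the first. Nos3, the endothelial nitric oxide synthase gene, had 1 at 3450 bp (4.44 in WDM-WDO and 7.04 in WDM-CDO), and Klf4, a factor induced by laminar flow, 1 at 37650 bp (9.37 and 4.83). Klf6, Smad6 and Heg1 had 1 each. Endothelial identity and junction genes had 6 of 50 (12%, 5.62 to 23.8). The region at the end of Plxnd1, a semaphorin receptor gene, at chr6:115994983-115995315, had 10.5 in WDM-WDO and 20.9 in WDM-CDO, with 64 and 96 reads, where 50.3 would be expected in CDM-WDO and 68.8 in CDM-CDO. Jam3, a junction molecule, had 4.09 and 7.58 at its end. Cdh5 had 1 inside the gene (8.06 and 5.25), and Fli1, Mef2c and Ctnnd1 1 each.

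The remaining lists of gene function were near or below the share over all genes. Notch and angiogenesis genes had 5 of 42, with 2 inside Notch2 (8.43 and 7.15 in WDM-WDO, 5.45 and 4.92 in WDM-CDO). Matrix and mesenchymal transition genes had 5 of 45, of which 2 near Zeb2 (15.1 and 4.26 in WDM-WDO, 5.52 and 3.46 in WDM-CDO) and 1 at the end of Vim (11.4 in WDM-WDO and 5.43 in WDM-CDO). Focal adhesion genes had 5 of 55, and 0 with lists of equal length or 3 by expected −log10 p. With lists of equal length the Notch list and the matrix list had 2 each, and by expected −log10 p the Notch list had 2, the matrix list 3 and the interferon list 1. Hippo pathway genes had 1 of 20, housekeeping genes 1 of 24, and histone acetylation and methylation enzymes 2 of 51 (3.92%, 1.08 to 13.2). Those 2 were Kat7 and Dnmt3a. Among cell type markers, Fcgr1, an immunoglobulin receptor of macrophages, had a region at its end (8.97 in WDM-WDO and 2.64 in WDM-CDO) and Bank1, a B cell gene, another (11.1 and 2.88). Near Ccr2 of monocytes lay one with 4.32 and 8.26. Of these the Fcgr1 and Bank1 regions were not expected to reach both CDM limits. Fibroblast and adipocyte markers each had 1 of 5, smooth muscle markers 0 of 4, red cell markers 0 of 1, and neutrophil markers had no region of both WDM lists. With lists of equal length, and likewise by expected −log10 p, the housekeeping, fibroblast and T and B cell lists had 0 and the macrophage list 1.

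**Figure D5:**
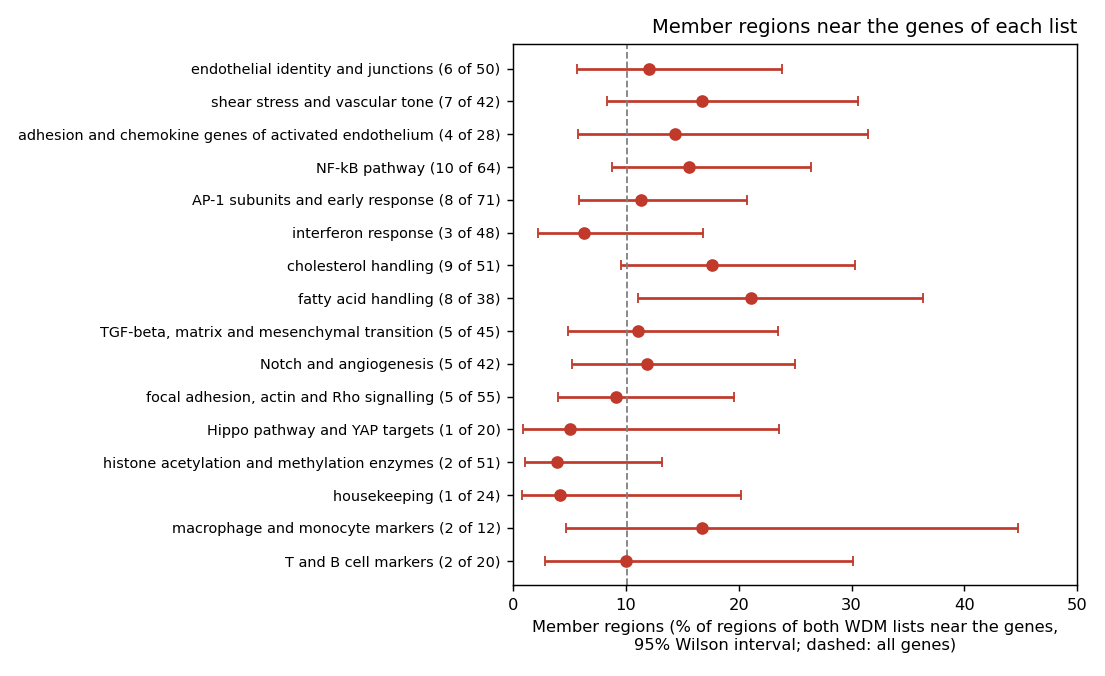
Share of regions of both WDM lists near the genes of each list that were WDM-only (x axis, %, with 95% Wilson intervals), for lists with at least 10 such regions. The dashed line is the 10.1% over all genes. The fatty acid list is the only one drawn whose interval does not include that line, with no adjustment for the number of lists.

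The promoters under WDM-only regions were poorer in CpG than those open in every list. Over the 202 protein-coding genes with such a promoter window, the median ratio of observed to expected CpG was 0.616, against 0.811 for the 6736 promoters under regions of all 4 lists and 0.585 for all 17274. Median G and C content was 56.5%, against 62.0% and 56.3%. The 1069 promoters under regions of both WDM lists and 1 CDM list had a CpG ratio of 0.691 and 58.7% G and C. The ETS form GGAAGT occurred in 39.6% (33.1 to 46.5) of these windows, against 30.9% for promoters open in all 4 lists and 25.4% of all promoters. AGGAAG, which can overlap it, occurred in 41.1% against 31.5% and 34.0%. The interferon response form GAAANNGAA occurred in 13.4% (9.35 to 18.7), against 6.41% and 8.19%, and the AP-1 form TGANTCA in 8.42% against 4.04% and 7.14%. The NF-Y box CCAAT was less frequent, at 28.7% (22.9 to 35.3) against 42.1% and 39.4%. The GC box was in 14.9%, against 24.3% and 15.7%. In the 1069 promoters under regions of both WDM lists and 1 CDM list GGAAGT occurred in 33.1% (30.4 to 36.0), AGGAAG in 35.1%, the interferon form in 8.42%, the AP-1 form in 5.80%, CCAAT in 36.0% and the GC box in 18.8%, each between the WDM-only promoters and those open in all 4 lists. For each of these forms the interval of the WDM-only promoters overlaps that of the 1069 promoters. The STAT form TTCCNGGAA was in 1.98% against 1.34% and 1.18%, the GATA form AGATAA in 9.41% against 4.82% and 10%, and the TEAD form CATTCCA in 3.96% against 2.39% and 3.84%. The E-box CACGTG was in 6.93% against 11.1% and 7.99%, and the forkhead form TGTTTAC in 2.48% against 2.32% and 2.98%. The NF-kB form GGANTTTCC occurred in 4 windows (1.98%), against 1.28% and 1.26%. The 12 forms were searched on both strands, and the interferon and NF-kB forms were added after other results had been seen.

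Close to miRNA genes lay 10 of the 1691 regions, within 1 kb of 10 hairpins (0.591%, 0.322 to 1.09), against 0.317% of all regions and 0.763% of the regions of all 4 lists. These genes were looked up after their values were seen. A region 839 bp upstream of the first hairpin of the Mir17 cluster, which encodes a set of growth-related miRNAs from 1 transcript, had −log10 q of 4.64 in WDM-WDO and 6.33 in WDM-CDO. Within the cluster miR-17-5p and miR-20a-5p share 1 seed, and miR-19a-3p and miR-19b-3p another. One region lay 861 bp downstream of Mir10a and at an end of Hoxb4 (3.91 in WDM-WDO and 4.00 in WDM-CDO). Mir199a-1 had one 167 bp upstream, inside Dnm2 (3.05 and 2.85), and the Mir152 hairpin was overlapped by one at Copz2 (1.73 and 3.24). At Mir199a-1 and Mir152 the expected pileups did not reach both CDM limits. The mature sequences are from RefSeq on GRCm38.p6, with the seed, bases 2 to 8, in capitals.
miR-17-5p: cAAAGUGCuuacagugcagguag
miR-20a-5p: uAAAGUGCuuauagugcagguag
miR-19a-3p: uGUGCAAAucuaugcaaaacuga
miR-19b-3p: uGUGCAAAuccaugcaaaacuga
miR-92a-3p: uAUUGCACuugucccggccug
miR-10a-5p: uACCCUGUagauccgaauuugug
miR-152-3p: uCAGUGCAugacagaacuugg
miR-199a-3p: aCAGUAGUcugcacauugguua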

How the data were processed

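Of 12 samples, 8 are ATAC-seq of mouse aortic endothelial cells and fall by their titles into 4 groups of 2. Data of the 4 H3K27ac samples were not used. Tools named in the submitters' processing notes are MACS2 2.2.9.1, Bowtie2 2.4.5, deepTools 3.5.4, Trim Galore 0.6.10, SAMtools 1.13 and FastQC 0.12.1, with GRCm38 (mm10) as the build. Settings, the pooling of samples and a shift of read ends for the transposase are not given in the sources used here. For each group the authors deposited 1 narrowPeak list. Its score, its fold enrichment over local background and its −log10 p and −log10 q per peak are the authors' own and were used as deposited for description, ranking and filtering inside each list. The −log10 q was also set side by side between the 2 WDM lists at the same region. The deposited summit offset gave the summit position. No column was left without a group.

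Peaks of chromosomes 1 to 19 and X were merged where they overlapped by at least 1 bp, each interval once. The summit pileup and local background were recovered from fold and −log10 p, taking the fold as pileup plus 1 read over background plus 1 read and the p as a Poisson tail, and 100% of peaks gave a whole number of reads, to a relative tolerance of 0.0001. Read depth per sample is unknown. The expected CDM pileup scales the pileup above background by the median ratio at regions with −log10 q of 50 or more in every list.

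Gene ends cover 1 kb on each side of both ends of every protein-coding span in a RefSeq table of GRCm38.p6. Regions were assigned to the nearest span within 100 kb, and 1580 of the 1691 were. The 21 gene lists hold 448 genes. Named genes were the 12 strongest WDM-only regions at gene ends and the 12 away from them by the lower −log10 q, the 10 genes with most regions, and list genes with a region at an end or with 2 or more. Of the 12 regions with local background above 5 times the genome background, left out of that ranking, 2 were near Sfi1 and the rest near Fosl2, Emp3, Irf2bp2, Myd88, Baz2a, Rara, Irf2bpl, Klf6, Dusp1 and Ahnak. List genes with a single region away from ends, miRNAs and the genes of the marker check were added to that rule. A few genes that the rule names are not reported here. The members and lists were chosen with earlier results of these data known. Motifs were planned around summits; as no genome was used, they were searched in RefSeq promoter windows. Python 3.11.15, numpy 2.4.6, pandas 2.3.3, scipy 1.17.1 and matplotlib 3.10.9 were used. No test was made, and the alternatives are given in the closing section.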

Additional observations from a re-analysis of the deposited data

How the results depend on the processing

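The number of WDM-only regions and the share at gene ends were recomputed under each alternative. The number was 1113 with −log10 q of 3 or more in the lists that hold the region, 769 with lists of equal length, 909 with summits in place of peaks, and 1072 when the expected −log10 p had to reach the lowest called in both CDM lists, an alternative added after seeing the data. It stayed within 1.5 times of 1691 at 1608 with −log10 q of 2 or more in all lists, 1772 with an overlap of 50% of the shorter peak, 1743 with gaps of up to 500 bp merged, and 1468 by expected pileup. The share at gene ends was 18.1%. It was 20.9% at −log10 q of 3, 20.7% at the 50% overlap, 22.5% at equal lengths, 20.5% with summits, 20.9% by expected −log10 p, 15.1% with a window of 0.5 kb, 22.5% with 2 kb, and 13.0% for promoter windows. The CDM-only regions numbered 60 at −log10 q of 3 and 93 with summits, and otherwise 194 to 291, against 234. Of the 21 gene lists, 0 moved by over 1.5 times at −log10 q of 2, 6 with assignment within 10 kb, 11 at equal lengths and 11 by expected −log10 p. Of the 87 named regions, 59 at equal lengths and 85 at −log10 q of 2 were still WDM-only, with the other alternatives between. Beyond fewer peaks in the shortened and stricter lists, the cause was not tested.

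No paired analysis was possible because the peak lists do not separate the samples of a group. For the same reason no sample was left out in turn. Motif windows around summits were not run. With 1 list per group, a difference in peak calls cannot be told apart from a difference in depth, enrichment at peaks or cell makeup between the lists. By the scaling used, 36.6% of the regions were not expected to reach the lowest −log10 p called in at least 1 CDM list. Assignment to the nearest gene does not show which gene a region acts on.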
